A study of Mus musculus with 8 samples.

Results

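The genes that carry long-chain fatty acids into the cell and oxidize them in mitochondria were compared between hearts of fetal mice with and without the type 3 deiodinase (DIO3), the enzyme that inactivates thyroid hormones. The 42 genes were listed by symbol for their roles in the pathway, and the rule that picked them names no measured difference. They were chosen with earlier results of these data known, however. All 42 were found among the 26590 gene symbols of the deposited RNA-seq table, and each gene was represented by its transcript with the highest average of both genotype means. The hearts were from C57BL/6J mice: 4 wild-type hearts (*Dio3+/+*) and 4 hearts lacking DIO3 (*Dio3-/-*), each from an individual fetus. The loss of DIO3 was not restricted to the heart, so the heart was studied in a fetus without DIO3 in any tissue. The sample titles put all 8 hearts at E13.5 (embryonic day). The separate age field agrees for 6 of them but lists *Dio3-/-* replicates 3 and 4 at E18.5. The study's methods name an embryonic day that neither field gives. If the age field is right, age and genotype cannot be told apart in the genotype means.

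Long-chain fatty acids are released from circulating lipoproteins, taken up by membrane transporters, bound by a cytosolic carrier and joined to coenzyme A. They cross the mitochondrial membranes as carnitine esters and are shortened in a repeating cycle of dehydrogenation, hydration, dehydrogenation and thiolysis, with electrons passed to the respiratory chain by the electron transfer flavoprotein. The fetal heart draws its energy mainly from glucose and lactate, and its capacity for fatty acid oxidation increases around birth. Thyroid hormone acts through nuclear receptors, and in adult tissues several genes of this pathway respond to it, including *Cpt1a*, *Ucp3* and *Pdk4*.

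The values were taken to be RPKM, the unit in the study's methods, since the deposited values name no unit. RPKM is read counts scaled to transcript length and library size, and levels were compared between genes on that reading. Each value is the mean over the 4 hearts of a genotype, with the coefficient of variation (CV, the SD divided by the mean) in place of single-heart values. The overlap of single hearts between genotypes was therefore not examined. Read totals per heart were not in the table. The study's methods give a range and an average of aligned reads over all samples, so depth cannot be compared between genotypes. Because the RNA came from whole hearts, fewer cells of a type and less RNA per cell cannot be told apart.

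A known target of the thyroid hormone receptor, *Klf9*, rose. It had a mean of 1.86 RPKM (CV 0.14) in *Dio3+/+* and 8.48 RPKM (CV 0.07) in *Dio3-/-* hearts, or 1.93 ± 0.09 (SE) as a log2 fold change (limma, adjusted P = 5.74e-06). *Dio3* itself was at 0.35 RPKM (CV 1.23) and 0.13 RPKM (CV 0.76), too low to be tested, and so gave no check of the labels. The design text calls the hearts male, but *Xist*, which is expressed from the inactive X chromosome of females, averaged 35.64 RPKM (CV 0.99) in *Dio3+/+* and 39.97 RPKM (CV 0.55) in *Dio3-/-* hearts. The Y-linked *Eif2s3y* averaged 9.38 RPKM (CV 1.04) and 7.29 RPKM (CV 1.46). The CVs of both genes show that hearts within each genotype differed strongly in these transcripts.

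In wild-type hearts the pathway was expressed from the cell surface to the electron transfer chain, with its highest transcript for the fatty acid carrier and its lowest for *Ucp3*. *Fabp3*, the heart fatty acid-binding protein, averaged 237.07 RPKM (CV 0.19). The long-chain acyl-CoA dehydrogenase *Acadl* followed with 124.83 RPKM (CV 0.15), and *Hadhb*, the thiolase subunit of the mitochondrial trifunctional protein, with 90.45 RPKM (CV 0.09). Averaged over both genotypes, 12 of the 42 genes were above 50 RPKM, 25 were between 10 and 50 RPKM, and 5 were below 10 RPKM. The 5 lowest were *Ppard*, *Mlycd*, *Slc27a1*, *Ppara* and *Ucp3*, the last of which is an uncoupling protein of muscle mitochondria. *Ucp3* averaged 0.05 RPKM (CV 0.26) in *Dio3+/+* and 0.13 RPKM (CV 0.58) in *Dio3-/-* hearts, below 1 RPKM in both genotypes. Genes had to exceed 1 RPKM in at least 1 genotype to be tested, and the other 41 members did.

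**Figure D1:**
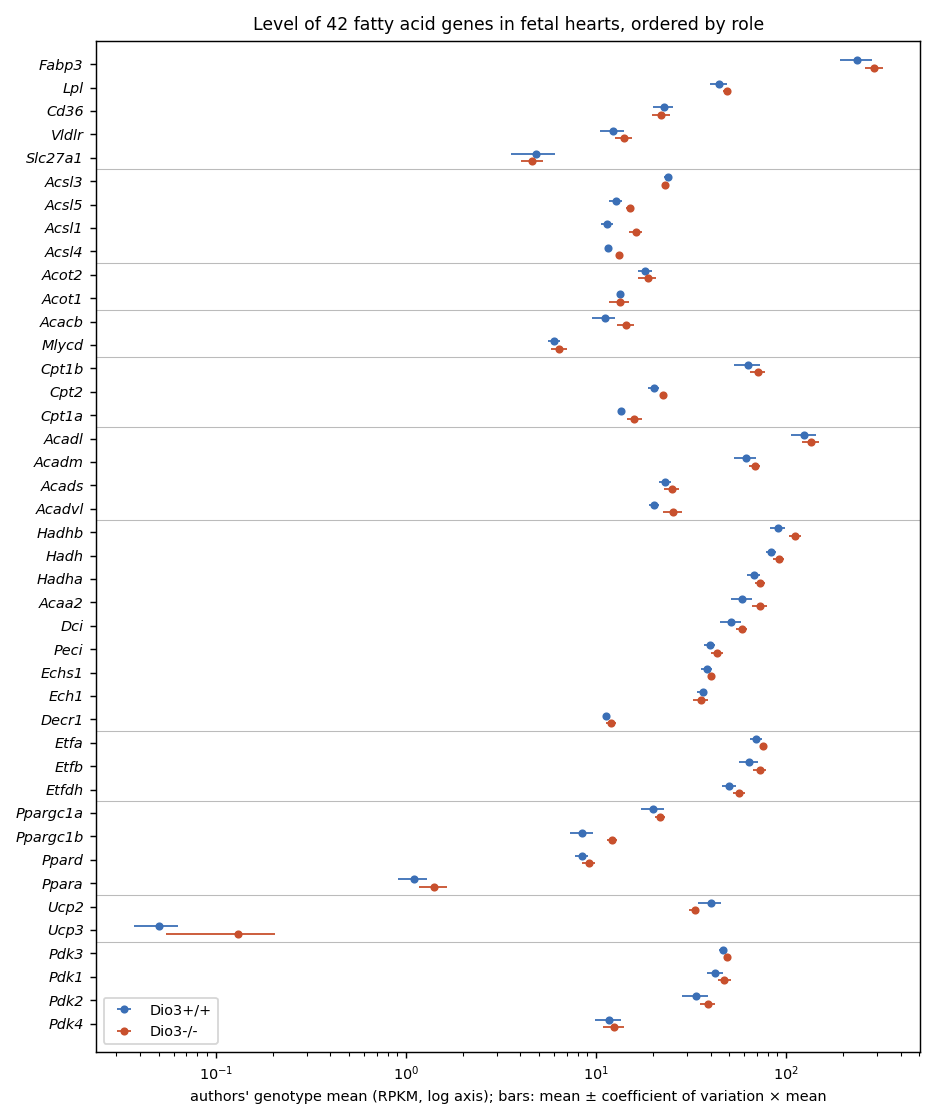
Mean expression of the 42 fatty acid uptake and oxidation genes in *Dio3+/+* and *Dio3-/-* fetal hearts, as RPKM on a log axis, grouped by role. Points are genotype means and bars are 1 SD over 4 hearts, computed from the CV; *Fabp3* is at the top of the range in both genotypes and *Ucp3* at the bottom.

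Between genotypes, 2 of the 41 tested genes rose in *Dio3-/-* hearts, *Acsl1* and *Ppargc1b*, and none fell. That is 4.88% of the tested members, against 2.29% of all 14657 tested gene symbols called in either direction (1.91% higher and 0.382% lower), at an adjusted P below 0.05 by limma. *Acsl1* encodes the main acyl-CoA synthetase of the mature heart, and *Ppargc1b* encodes the coactivator PGC-1β, which works with nuclear receptors on genes of mitochondrial metabolism. At an unadjusted P below 0.05, 12 members (29.3%) were higher and 1 (2.44%) was lower, against 15.2% and 4.46% of all tested symbols (19.7% in either direction). Centring on the median of all transcripts left 1 called member, and the calls over all symbols went from 280 higher and 56 lower to 129 and 51.

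The other members differed less, but most had the same sign. The log2 fold change was above 0 for 36 of 41 tested members (87.8%), against 63.3% of all tested symbols, and its median was 0.14 against 0.04 over all tested symbols. The members spanned -0.28 for *Ucp2* to 0.50 for *Ppargc1b*. Of the 41 members, 25 (61.0%) lay above 0.12, the third quartile of all tested symbols. These shares describe the list, since its genes were chosen with earlier results known, come from the same 8 hearts and are not independent. The summed RPKM of the 42 genes was 1628.44 in *Dio3+/+* and 1831.74 in *Dio3-/-* hearts. For 37 of the 39 tested members that were not called, the 95% interval of the log2 fold change lay inside a 1.5-fold change in either direction.

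Hearts within a genotype varied little for these genes, but by the median CV no less than over all tested symbols. The median CV of the tested members was 0.09 in *Dio3+/+* and 0.08 in *Dio3-/-* hearts, against 0.09 and 0.06 over all tested symbols, and the largest of the members were 0.26 and 0.17. The CV was larger in *Dio3+/+* for 28 members (68.3%, near the 65.39% of all tested symbols), larger in *Dio3-/-* for 10 and equal for 3. The genotype means of 10 tested members (24.4%) lay further apart than their SDs added together, against 15.5% of all tested symbols (12.8% with the higher mean in *Dio3-/-* hearts): *Acsl1*, *Ppargc1b*, *Acsl4*, *Hadhb*, *Acsl5*, *Acadvl*, *Cpt1a*, *Acacb*, *Acaa2* and *Cpt2*. All 10 had the higher mean in *Dio3-/-* hearts.

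**Figure D2:**
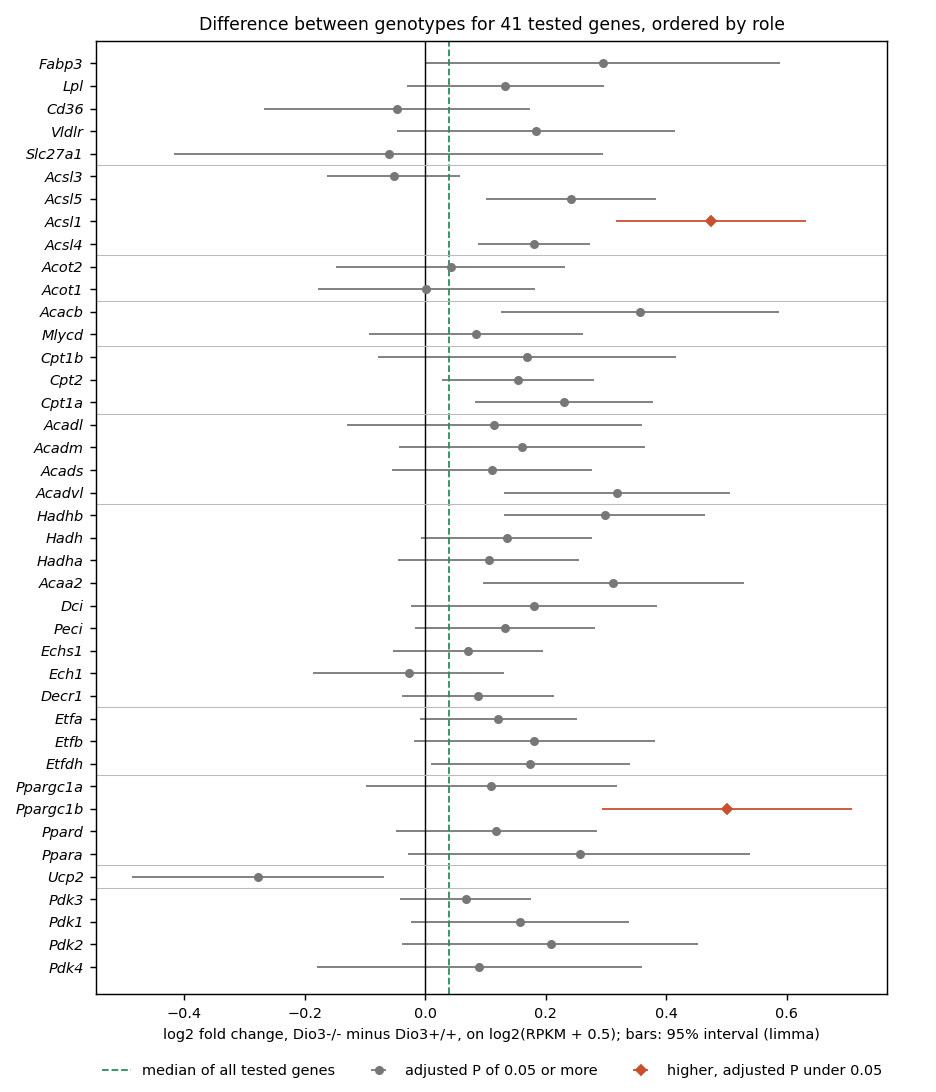
Log2 fold change of each tested member in *Dio3-/-* relative to *Dio3+/+* hearts on the log2(RPKM + 0.5) scale, with the 95% interval as a bar, grouped by role. The 2 called genes, *Acsl1* and *Ppargc1b*, are marked; 36 of 41 points lie above 0 and *Ucp2* is the lowest.

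Among the 4 acyl-CoA synthetases, which trap fatty acids in the cell by joining them to coenzyme A, 1 rose and the other 3 did not pass the test. *Acsl1* averaged 11.48 RPKM (CV 0.07) in *Dio3+/+* and 16.14 RPKM (CV 0.08) in *Dio3-/-* hearts, which gave a log2 fold change of 0.47 ± 0.07 (SE) at an adjusted P of 0.0111 in limma. Its second transcript had nearly the same values, 11.05 and 15.52 RPKM (adjusted P = 0.0114 by limma). Transcripts of a gene come from the same hearts, so a second transcript is not an independent check. The difference of the *Acsl1* means, 4.66 RPKM, was more than the 2.10 RPKM that both SDs add up to. With Welch's test on the summaries, which shares no variance between genes, the adjusted P of *Acsl1* was 0.117.

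*Acsl4*, which prefers arachidonic acid, had the smallest CVs of the members. It averaged 11.61 RPKM (CV 0.02) and 13.23 RPKM (CV 0.01), which gave a log2 fold change of 0.18 ± 0.04 (SE) at an adjusted P of 0.0587 in limma, and its 4 transcripts gave 0.17 to 0.18. The adjusted P of *Acsl4* was 0.0493 by limma when only transcripts above 5 RPKM were tested and 0.0497 by Welch's test, under which it was the only member called. *Acsl4* is on the X chromosome, and the part of the mixed *Xist* levels in its difference was not tested. *Acsl5* averaged 12.66 RPKM (CV 0.08) and 15.06 RPKM (CV 0.04), which gave a log2 fold change of 0.24 ± 0.06 (SE) at an adjusted P of 0.0777 in limma. *Acsl3*, associated with lipid droplet formation, had the opposite sign, 23.95 RPKM (CV 0.05) and 23.08 RPKM (CV 0.03), with a log2 fold change of -0.05. *Acsl3* was the most abundant synthetase transcript in both genotypes. The share of *Acsl1* in the summed RPKM of the 4 synthetases was 19.23% in *Dio3+/+* and 23.91% in *Dio3-/-* hearts, and that of *Acsl3* was 40.12% and 34.19%. These shares were not tested.

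The 4 transcriptional regulators of the pathway were all higher in *Dio3-/-* hearts by their means, and 1 passed the test. *Ppargc1b* averaged 8.46 RPKM (CV 0.14) in *Dio3+/+* and 12.17 RPKM (CV 0.06) in *Dio3-/-* hearts, which gave a log2 fold change of 0.50 ± 0.09 (SE) at an adjusted P of 0.0301 in limma. This was the largest fold change of the tested members. A second transcript of *Ppargc1b*, which is not an independent check either, gave 8.26 and 11.87 RPKM (adjusted P = 0.0307 by limma). The call of *Ppargc1b* was less firm than that of *Acsl1*: its adjusted P was 0.0528 by limma without the limit on low values, 0.0506 by limma after centring on the median of all transcripts, and 0.138 by Welch's test.

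The related coactivator *Ppargc1a* averaged 20.05 RPKM (CV 0.14) and 21.67 RPKM (CV 0.06), with a log2 fold change of 0.11 (95% interval -0.10 to 0.32). The ratio of *Ppargc1a* to *Ppargc1b* was 2.37 in *Dio3+/+* and 1.78 in *Dio3-/-* hearts, so *Ppargc1a* was the more abundant in both. Whether the fold changes of both coactivators differed from each other was not tested. *Ppara*, the fatty acid-activated receptor that drives the pathway in adult heart and liver, was low, at 1.10 RPKM (CV 0.17) and 1.41 RPKM (CV 0.17), with a log2 fold change of 0.26 (95% interval -0.03 to 0.54). *Ppard*, its relative, averaged 8.41 RPKM (CV 0.08) and 9.17 RPKM (CV 0.08). *Ppard* therefore made up most of the summed RPKM of the pair, 88.43% in *Dio3+/+* and 86.67% in *Dio3-/-* hearts.

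At the cell surface none of the 5 genes of uptake and intracellular binding passed the test, and their signs were mixed. *Fabp3* averaged 237.07 RPKM in *Dio3+/+* and 290.92 RPKM (CV 0.11) in *Dio3-/-* hearts, with a log2 fold change of 0.29 (95% interval 0.00 to 0.59; adjusted P = 0.266 by limma). This was the largest difference among the 5 genes in RPKM, with a CV of 0.19 in *Dio3+/+* hearts. Lipoprotein lipase, *Lpl*, which frees fatty acids from triglyceride, averaged 44.41 RPKM (CV 0.10) and 48.75 RPKM (CV 0.05). The lipoprotein receptor *Vldlr* averaged 12.26 RPKM (CV 0.14) and 13.99 RPKM (CV 0.10), a log2 fold change of 0.18. Both membrane transporters of fatty acids had slightly lower means in *Dio3-/-* hearts. *Cd36* averaged 22.75 RPKM (CV 0.12) and 22.01 RPKM (CV 0.11), a log2 fold change of -0.05 (95% interval -0.27 to 0.17). *Slc27a1*, the fatty acid transport protein FATP1, averaged 4.85 RPKM (CV 0.26) and 4.63 RPKM (CV 0.13), and its 95% interval of -0.42 to 0.29 was the widest of the members.

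The 3 genes of the carnitine shuttle, the entry gate to the mitochondrion, had positive log2 fold changes between 0.15 and 0.23, and none passed the test. *Cpt1a*, the isoform of carnitine palmitoyltransferase 1 typical of liver and fetal tissues, averaged 13.49 RPKM (CV 0.03) and 15.91 RPKM (CV 0.09), which gave a log2 fold change of 0.23 ± 0.07 (SE) at an adjusted P of 0.0977 in limma. The muscle isoform *Cpt1b* averaged 63.0 RPKM (CV 0.16) and 70.91 RPKM (CV 0.09), a log2 fold change of 0.17. By these means *Cpt1b* was 4.67 times as abundant as *Cpt1a* in *Dio3+/+* and 4.46 times in *Dio3-/-* hearts. In a later mouse annotation (GENCODE M21), 81.38% of the exon bases of *Cpt1b* are shared with the same-strand gene *Gm44502*, so its reads cannot be assigned to it alone. *Cpt2*, the inner membrane enzyme of the shuttle, averaged 20.13 RPKM (CV 0.07) and 22.45 RPKM (CV 0.03), a log2 fold change of 0.15.

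**Figure D3:**
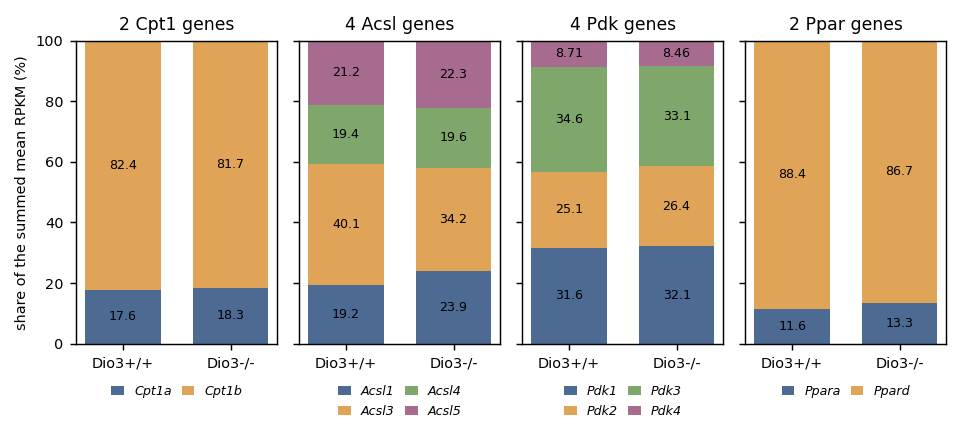
Share of the summed RPKM of 4 gene families taken by each isoform in *Dio3+/+* and *Dio3-/-* hearts, in percent; each bar stacks to the whole family and carries no error, since the shares come from genotype means. *Cpt1b*, *Acsl3* and *Ppard* hold the largest share of their families in both genotypes, and the *Acsl1* share is 19.23% in *Dio3+/+* and 23.91% in *Dio3-/-* hearts.

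Malonyl-CoA inhibits carnitine palmitoyltransferase 1, and the enzymes that make and remove it did not pass the test. *Acacb*, the acetyl-CoA carboxylase of the mitochondrial surface that makes it, averaged 11.09 RPKM (CV 0.14) and 14.33 RPKM (CV 0.10), a log2 fold change of 0.36 (95% interval 0.13 to 0.59; adjusted P = 0.101 by limma). Malonyl-CoA decarboxylase, *Mlycd*, which removes it, averaged 6.01 RPKM (CV 0.07) and 6.40 RPKM (CV 0.10), a log2 fold change of 0.08. The transcripts of *Mlycd* did not share one sign: the least abundant of 3 averaged 2.46 and 1.84 RPKM, a log2 fold change of -0.34 that also did not pass. The acyl-CoA thioesterases *Acot1* and *Acot2*, which release free fatty acids again, had log2 fold changes near 0. *Acot1* averaged 13.35 RPKM (CV 0.04) and 13.37 RPKM (CV 0.12), with a log2 fold change of 0.00 that turned to -0.04 after centring on the median of all transcripts. *Acot2* averaged 18.13 RPKM (CV 0.08) and 18.68 RPKM (CV 0.11). *Acot1* and *Acot2* are near-identical copies and only uniquely mapped reads were counted, so the division of reads between them is uncertain.

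The 4 acyl-CoA dehydrogenases, which open each turn of the oxidation cycle for fatty acids of different lengths, all had positive log2 fold changes, and none passed the test. *Acadvl*, for very long chains, averaged 20.29 RPKM (CV 0.06) and 25.41 RPKM (CV 0.12), which gave a log2 fold change of 0.32 ± 0.08 (SE) at an adjusted P of 0.0798 in limma. In GENCODE M21, 42.85% of its exon bases overlap *Dvl2* on the opposite strand, and whether counting used strand is not given in the sources used here. The other 3 were closer to the median of the members. *Acadl*, for long chains, averaged 124.83 RPKM (CV 0.15) and 135.15 RPKM (CV 0.10). *Acadm*, for medium chains, averaged 61.24 RPKM (CV 0.13) and 68.48 RPKM (CV 0.07), and *Acads*, for short chains, averaged 23.06 RPKM (CV 0.07) and 24.94 RPKM (CV 0.09). Their log2 fold changes were 0.11, 0.16 and 0.11.

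Of the 9 genes for the later steps of the cycle and the auxiliary enzymes of unsaturated fatty acids, 8 had a positive log2 fold change and none passed the test. The 2 subunits of the trifunctional protein had estimates of unlike size, but their 95% intervals overlapped (0.13 to 0.46 for *Hadhb*). *Hadhb* averaged 90.45 RPKM (CV 0.09) in *Dio3+/+* and 111.29 RPKM (CV 0.07) in *Dio3-/-* hearts, which gave a log2 fold change of 0.30 ± 0.07 (SE) at an adjusted P of 0.0696 in limma. *Hadha*, the hydratase and dehydrogenase subunit, averaged 67.58 RPKM (CV 0.08) and 72.72 RPKM (CV 0.06), a log2 fold change of 0.10 (95% interval -0.05 to 0.26). The genes are neighbours that are transcribed from a shared promoter region. The ratio of *Hadhb* to *Hadha* was 1.34 in *Dio3+/+* and 1.53 in *Dio3-/-* hearts, and a difference between their fold changes was not tested.

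The thiolase *Acaa2*, which ends the cycle for medium chains, averaged 58.80 RPKM (CV 0.13) and 73.07 RPKM (CV 0.09), a log2 fold change of 0.31 (95% interval 0.10 to 0.53; adjusted P = 0.121 by limma). *Hadh*, the dehydrogenase for shorter chains, averaged 83.19 RPKM (CV 0.06) and 91.41 RPKM (CV 0.07). The short-chain hydratase *Echs1* averaged 38.29 RPKM (CV 0.07) and 40.25 RPKM (CV 0.03). The isomerases and the reductase that prepare double bonds for the cycle had log2 fold changes between -0.03 and 0.18. *Dci* (now named *Eci1*) averaged 51.51 RPKM (CV 0.13) and 58.47 RPKM (CV 0.07), and *Peci* (*Eci2*) averaged 39.53 RPKM (CV 0.07) and 43.36 RPKM (CV 0.07). The dienoyl-CoA reductase *Decr1* averaged 11.30 RPKM (CV 0.04) and 12.04 RPKM (CV 0.06). The dienoyl-CoA isomerase *Ech1* had the negative sign in this group, with 36.33 RPKM (CV 0.06), 35.64 RPKM (CV 0.09) and a log2 fold change of -0.03.

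The electron transfer flavoprotein takes electrons from the acyl-CoA dehydrogenases, and its 3 genes had similar log2 fold changes, none of which passed the test. *Etfa* averaged 69.35 RPKM (CV 0.07) and 75.47 RPKM (CV 0.04), *Etfb* averaged 63.84 RPKM (CV 0.12) and 72.44 RPKM (CV 0.08), and the ubiquinone oxidoreductase *Etfdh* averaged 50.23 RPKM (CV 0.09) and 56.74 RPKM (CV 0.07). Their log2 fold changes were 0.12, 0.18 and 0.17. For *Etfb*, 53.01% of the exon bases are shared with the same-strand gene *Gm45233* in GENCODE M21. *Ucp2*, a carrier of the inner mitochondrial membrane expressed in many tissues including blood cells, had the lowest log2 fold change of the members. It averaged 40.06 RPKM (CV 0.14) in *Dio3+/+* and 32.98 RPKM (CV 0.06) in *Dio3-/-* hearts, with a log2 fold change of -0.28 (95% interval -0.49 to -0.07; adjusted P = 0.146 by limma).

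The pyruvate dehydrogenase kinases switch off the entry of pyruvate into mitochondrial oxidation and so favour fatty acids. All 4 were expressed, with positive log2 fold changes between 0.07 and 0.21, and none passed the test. *Pdk3* averaged 46.52 RPKM (CV 0.05) and 48.75 RPKM (CV 0.03), *Pdk1* averaged 42.41 RPKM (CV 0.10) and 47.34 RPKM (CV 0.08), and *Pdk2* averaged 33.63 RPKM (CV 0.16) and 38.91 RPKM (CV 0.09). *Pdk4*, the kinase induced by fasting and by fatty acids in adult muscle, was the lowest, with 11.69 RPKM (CV 0.16), 12.47 RPKM (CV 0.13) and a log2 fold change of 0.09 (95% interval -0.18 to 0.36). The share of *Pdk4* in the summed RPKM of the 4 kinases was 8.71% in *Dio3+/+* and 8.46% in *Dio3-/-* hearts.

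Genes that work beside these members were taken from 8 further lists, of which 96 genes were tested. The lists were chosen with earlier results of these data known, so their shares describe the lists and test nothing. In these lists 5 genes passed the test with the higher mean in *Dio3-/-* hearts and none with the lower (5.21%, against the 2.29% of all tested symbols), and 77 of 96 had a log2 fold change above 0 (80.21%), with a median of 0.11. For 3 of the 96 genes the mean exceeded 1 RPKM in 1 genotype alone, which fixed their direction. Of the other 93, 4 were called and 76 were above 0. The 5 were *Bdh1*, *Oxct1*, *Brp44l*, *Pdp2* and *Abcd2*, which act on ketone bodies, pyruvate and peroxisomal fatty acids. With Welch's test none of the 5 was called, at adjusted P values of 0.0719, 0.116, 0.0589, 0.11 and 0.14 in that order.

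Of the 7 genes of ketone body and acetate use, 2 rose (28.57%, against 2.29% of all tested symbols called in either direction). The share only describes a small list chosen with earlier results known. *Bdh1*, which interconverts the ketone bodies 3-hydroxybutyrate and acetoacetate, averaged 2.37 RPKM (CV 0.08) in *Dio3+/+* and 4.19 RPKM (CV 0.08) in *Dio3-/-* hearts, with a log2 fold change of 0.71 and an adjusted P of 0.00337 in limma. *Oxct1*, the enzyme that activates acetoacetate for oxidation outside the liver, averaged 76.39 RPKM (CV 0.05) and 97.59 RPKM (CV 0.06), with a log2 fold change of 0.35 and an adjusted P of 0.0177 in limma.

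Of the 10 tested genes of the pyruvate dehydrogenase complex and pyruvate entry, 2 rose, all 10 had a log2 fold change above 0, and the median was 0.25. *Brp44l*, now named *Mpc1*, a subunit of the mitochondrial pyruvate carrier, averaged 42.04 RPKM (CV 0.05) and 58.73 RPKM (CV 0.05), with a log2 fold change of 0.48 and an adjusted P of 0.00337 in limma. *Pdp2*, the phosphatase that reverses the kinases above, averaged 3.91 RPKM (CV 0.05) and 5.05 RPKM (CV 0.06), with a log2 fold change of 0.33 and an adjusted P of 0.0366 in limma. Its call was lost without the limit on low values (0.0708), after centring (0.0672) and with each CV raised by 0.005 (0.0564). At an unadjusted P below 0.05, 9 of these 10 genes were higher in *Dio3-/-* hearts, against 15.2% of all tested symbols. These shares only describe a list that was chosen with earlier results known.

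Of 17 tested genes of peroxisomal oxidation, 1 passed the test (5.88%, against 2.29% of all tested symbols). *Abcd2*, a peroxisomal transporter of very long-chain fatty acids, averaged 0.80 RPKM (CV 0.36) and 1.69 RPKM (CV 0.11), with a log2 fold change of 0.75 and an adjusted P of 0.0465 in limma. It exceeded 1 RPKM in *Dio3-/-* hearts alone, so the limit on low values fixed its direction, and without that limit its adjusted P was 0.0724. It was called in 4 of 9 alternatives. In the other 5 lists no gene passed the test. Their median log2 fold changes were 0.13 for other mitochondrial enzymes of oxidation (15 tested), 0.14 for lipid droplet and lipolysis genes (11 tested), 0.07 for nuclear receptors and coactivators (16 tested), 0.06 for other genes of uptake and binding (11 tested) and 0.06 for malonyl-CoA and AMPK genes (9 tested).

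**Figure D4:**
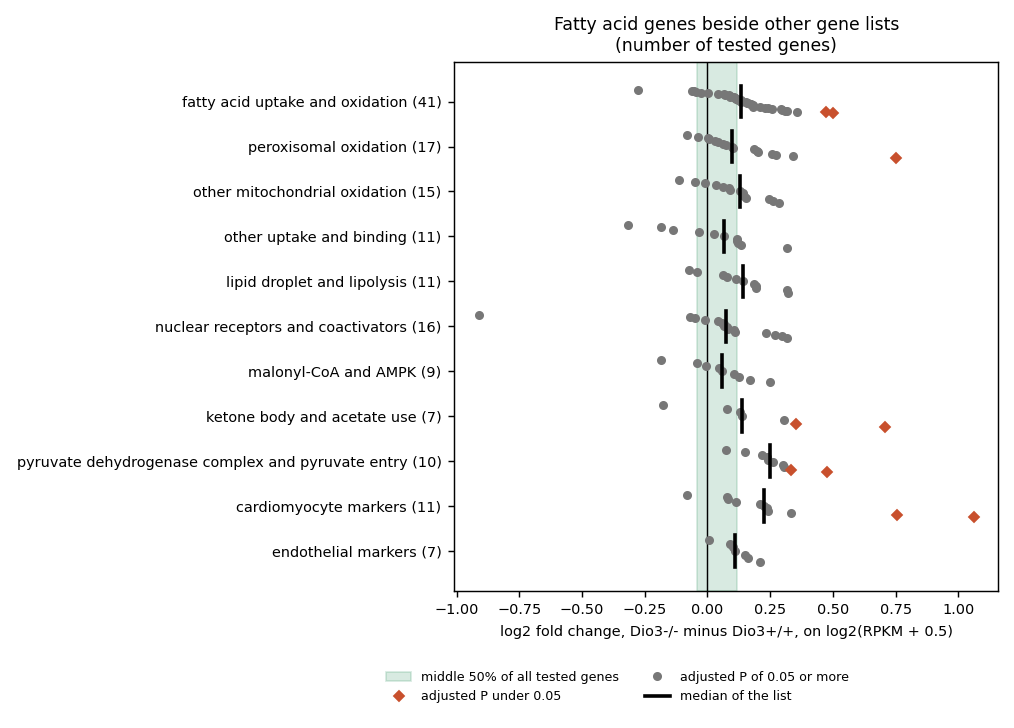
Log2 fold change in *Dio3-/-* relative to *Dio3+/+* hearts, on the log2(RPKM + 0.5) scale, of every tested gene among the 41 members, the 8 further lists and the cardiomyocyte and endothelial markers; points are genes, black lines are list medians and the band is the middle 50% of all tested symbols. Called genes are marked as diamonds. The median is 0.14 for the members, 0.25 for the pyruvate genes and 0.06 for other uptake and binding. The other marker lists are not drawn, among them the erythroid one (median -1.43) and the hepatocyte one (median 1.645).

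Thyroid hormone receptors and the receptors encoded by *Ppara* and *Ppard* bind DNA at copies of the hexamer AGGTCA. Promoter sequence was available for 37 of the 42 members (RefSeq, build GRCm38.p6, 250 bases before the start of transcription to 50 after it), giving 43 promoters. AGGTCA was searched in the bases before the start on both strands and was found in 6 of the 43 (13.95%), against 14.02% of all 32851 promoters of the same length. The 6 belonged to *Acadvl*, *Cpt1a*, *Acadm*, *Echs1*, *Cd36* and *Ucp3*. Pairs of AGGTCA in the same direction with 1 base between them, and with 4 bases between them, were also searched on both strands. Each pair contains the hexamer, and they were found in none of the members' promoters and in 0.033% and 0.015% of all promoters. *Acsl1*, which rose, had no match in either of its 2 promoters, while *Ppargc1b*, *Lpl*, *Cpt1b*, *Acaa2* and *Decr1* had no entry and were not searched. Matches describe these windows and are not sites shown to be bound. The stretches around the hexamer are given for the 5 expressed genes that had a match, on the strand of the gene, 5′ to 3′, with the hexamer in capitals (TGACCT is AGGTCA read on the opposite strand).
Acadvl, chr11:70015490-70015535, minus strand, 81 bases before the start: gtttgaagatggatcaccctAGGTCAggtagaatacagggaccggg
Cpt1a, chr19:3323187-3323232, plus strand, 88 bases before the start: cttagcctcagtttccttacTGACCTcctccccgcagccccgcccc
Acadm, chr3:153944867-153944893, minus strand, 243 bases before the start: gTGACCTtcgggctccggtgacactgg
Echs1, chr7:140116479-140116524, minus strand, 77 bases before the start: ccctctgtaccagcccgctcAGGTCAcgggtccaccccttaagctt
Cd36, chr5:17836099-17836144, minus strand, 222 bases before the start: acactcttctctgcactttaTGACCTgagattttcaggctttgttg

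The log2 fold changes of these 5 genes were 0.32 for *Acadvl*, 0.23 for *Cpt1a*, 0.16 for *Acadm*, 0.07 for *Echs1* and -0.05 for *Cd36*, and none of the 5 passed the test.

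Markers of the cell types in a fetal heart were also compared between genotypes. Of 11 cardiomyocyte markers, 2 rose (18.18%, against 2.29% of all tested symbols called in either direction). They were *Myh6* (log2 fold change 1.06, adjusted P = 0.00125 by limma) and *Tnni3* (0.75, adjusted P = 0.0177 by limma). The study also lists both as differentially expressed. The 9 not called ran from -0.08 for *Myh7* to 0.33 for *Myl7*. Between them were *Tnnt2* (0.08), *Tnni1* (0.08), *Nkx2-5* (0.11), *Nppa* (0.21), *Ttn* (0.23), *Actc1* (0.24) and *Myl2* (0.24). Whether the share of cardiomyocytes differed was not tested. Of the 11, 10 were above 0 (90.91%, against 63.3% of all tested symbols), with a median log2 fold change of 0.23. The summed RPKM of the cardiomyocyte markers was 13363.83 in *Dio3+/+* and 15926.07 in *Dio3-/-* hearts. Erythroid markers went the other way: all 8 in the table were below 0, 1 fell (*Hbb-bh1*, -1.51, adjusted P = 0.0468 by limma), and their summed RPKM was 47130.60 and 16302.75. The part of these differences in those of the members was not tested.

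Hepatocyte markers, of genes whose products include albumin and apolipoproteins, were low and uneven between hearts: all 14 had the higher mean in *Dio3-/-* hearts and none of the 13 tested passed the test, with a summed RPKM of 26.17 and 139.20 and median CVs of 0.92 and 1.07. At an unadjusted P below 0.05 by limma, all 13 were higher in *Dio3-/-* hearts, against 15.2% of all tested symbols. Their median log2 fold change was 1.645. Of the 13, 6 exceeded 1 RPKM in *Dio3-/-* hearts alone, which fixed the direction of those 6. Liver also expresses *Cpt1a*, *Acsl1* and *Acsl5*, and the part of the hepatocyte transcripts in their differences was not tested. Of 8 adipocyte markers, 2 were tested and neither was called. These were *Fabp4*, at 27.51 RPKM (CV 0.45) and 29.99 RPKM (CV 0.17), and *Cidea*, at 1.01 and 1.24 RPKM. The defining *Adipoq* was at 0.06 and 0.02 RPKM and *Lep* at 0. The 7 endothelial markers (summed RPKM 261.83 and 282.51) and the macrophage markers (38.61 and 37.76) were not called. Skeletal muscle markers went both ways, 3 higher and 7 lower by their means: the embryonic *Myog* and *Myh3* had log2 fold changes of -2.62 and -3.59, with CVs of 1.56 and 1.61 in *Dio3+/+* hearts, whereas *Ckm* and *Acta1*, which heart also expresses, had 0.80 and 0.40 and made up most of a summed RPKM of 203.74 and 248.40. The epicardial and fibroblast markers summed to 820.58 and 730.81 RPKM, and no gene of either list was called.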

How the data were processed

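Total RNA of whole fetal hearts was depleted of ribosomal RNA and sequenced as single-end reads. The authors aligned reads with Novoalign 2.08, kept unique alignments and scaled each sample linearly to the one with the fewest reads. The genome build and strand setting are not given in the sources used here. The deposited table gives, per transcript, genotype means, taken to be RPKM because the methods use that unit (the header names none), and a deposited ratio, the coefficient of variation (SD over mean), both with 2 decimals. Fold changes and q values computed by the authors were not used. No value of single hearts was used.

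Log2(mean + 0.5) was compared with limma 3.58.1 in R 4.3.3: the SD came from the coefficient of variation, with 6 residual degrees of freedom, and the pooled variance was moderated with a mean-variance trend. Tests were two-sided and covered 32703 transcripts (14657 symbols) above 1 RPKM in at least 1 genotype, with Benjamini-Hochberg adjustment over them all, called below 0.05. The script was tested on simulated data, with known changes placed only in transcripts with smaller CVs. Recovery of changes in transcripts with large CVs was not checked. A gene was called by its transcript with the highest mean. Figures and counts used Python 3.11.15, pandas 2.3.3 and matplotlib 3.10.9.

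Members and lists were chosen with earlier results of these data known. All members were named. Called members and the 5 uncalled ones with the lowest adjusted P were given with full statistics. The others were given by their means, and some also by a fold change, its interval or a group range. Other pathway genes were named where called. Alternatives were other pseudocounts, filters, Welch's test from the summaries, no trend, 1 transcript per gene, calling by any transcript, centring, and corrections for rounded or large coefficients of variation.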

Additional observations from a re-analysis of the deposited data

How the results depend on the processing

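The count of called members, 2, was 1 with no filter on low values, with Welch's test and after centring on the median log2 ratio of all transcripts (0.04). That member was *Acsl1* without the filter and after centring, but *Acsl4* with Welch's test (adjusted P = 0.0497), which called neither *Acsl1* nor *Ppargc1b*. The count was 3 when only transcripts above 5 RPKM were tested, with *Acsl4* added, and 2 under the other 7 alternatives, which include calling a gene by any of its transcripts. The median log2 fold change of the members ranged from 0.10 (centred) to 0.14, and the single change of sign was *Acot1*, at -0.036 after centring. *Acsl1* passed in 9 of 10 alternatives (adjusted P from 0.00627 to 0.117) and *Ppargc1b* in 7 of 10 (0.018 to 0.138), by limma or Welch's test. Of the other pathway genes, 5 were called, against 3 with no filter, 3 after centring, 3 with each CV raised by 0.005, 11 without transcripts with a CV above 0.5, and 0 with Welch's test, under which 30 of 96 had an unadjusted P below 0.05. Of the 5, *Brp44l*, *Oxct1* and *Bdh1* lost their call with Welch's test only, while *Pdp2* lost it in 4 of 9 and *Abcd2* in 5 of 9 alternatives. Over all symbols the 336 calls became 26 (Welch) to 495 (without transcripts with a CV above 0.5). The split of 280 higher and 56 lower became 129 and 51 after centring, and 25 and 1 with Welch's test. *Ucp3*, tested only without the filter, gave 0.20 on the log2 scale (limma, adjusted P = 0.295).

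No paired analysis was possible because the table used here gives genotype means and not values of single hearts. For the same reason the alternatives that leave out each heart in turn were not run, nor was that without *Dio3-/-* hearts 3 and 4 with the later age in one field. All p-values rest on the authors' CVs, whose rounding to 2 decimals matters most where they are small, as for *Acsl4*. Depth of each heart is unknown beyond the range over all samples in the study's methods. Exon overlap with another gene covered over 20% of the exon bases of *Cpt1b*, *Etfb* and *Acadvl*.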
